A study of Mus musculus with 14 samples.

Results

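The genes described are 9 complement components and regulators measured in mouse mammary epithelial cells: C1ra, C1s1, C4b, C2, C3, Cfb, Serping1, Cd55 and Cd59a. They were chosen by gene symbol as a named set, with no threshold on their values. All 9 were among the 16124 genes of the table of normalized read counts, and all 9 had at least 10 counted fragments in each of the 14 libraries.

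The libraries came from 7 wild-type (WT) and 7 Usp22 OE/OE female mice, all 3.5 months old, with 1 library per mouse, so that replicates are separate animals. OE/OE mice carry on both alleles of the ROSA26 locus a Usp22 cDNA with FLAG and MYC tags, driven by the strong CAGGS promoter. The STOP cassette before the cDNA was removed by Cre under the Zp3 promoter, which acts in the growing oocyte, so the transgene is switched on in every tissue of the offspring and not in the epithelium alone. Each OE/OE mouse was compared with a WT littermate, and the 7 pairs carry the numbers 1, 3, 4, 5, 6, 7 and 8. Organoids were released from mammary glands with collagenase, separated from stromal cells by brief spins and dissociated with trypsin, without sorting.

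Complement is a set of plasma and membrane proteins that marks surfaces for uptake and can pierce membranes. In the classical pathway, C1q binds a target, the protease C1r activates C1s, C1s cleaves C4 and C2, and the resulting enzyme cleaves C3. The alternative pathway uses factor B to build a second enzyme on deposited C3. Host cells restrain both pathways with CD55 and CD59, while C1 inhibitor removes C1r and C1s from the C1 complex. The liver makes most plasma complement, while fibroblasts, macrophages, endothelial cells and epithelia make many components locally. USP22, the deubiquitinase of the SAGA coactivator complex, removes ubiquitin from histones and other proteins.

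Between 20125106 and 41835978 fragments were counted per library, the fewest in the WT mice of pairs 1 and 8. Usp22 had 3500 to 5380 normalized counts in WT and 74948 to 144288 in OE/OE, so every library matched its genotype. The labelled cell type was met by its markers: all 12 of 12 pan-epithelial markers (such as Epcam and Krt8) were counted in every library, with a summed level of 364982 to 595209 normalized counts in WT and 404059 to 694192 in OE/OE. Markers of other cells were counted too, and none of them was at 0 in any library. The 15 fibroblast markers (Col1a1, Pdgfra and others) summed to 114497 to 237035 normalized counts in WT and 77644 to 178523 in OE/OE. The 12 adipocyte markers summed to 32100 to 66144 in WT and 19053 to 60690 in OE/OE, the 12 macrophage markers to 6573 to 9688 and 5136 to 13101, and the 12 endothelial markers to 53324 to 80343 and 18744 to 113755. In such bulk samples, fewer cells of a type and less RNA per cell cannot be told apart.

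The 9 genes lie on 4 chromosomes (GRCm38, GENCODE M21), and 2 sets of them are neighbours. C1ra (ENSMUSG00000055172.10, chr6:124512405-124523443, plus strand) and C1s1 (ENSMUSG00000038521.17, chr6:124530345-124542359, minus strand) end towards each other with 6901 bases between them. C4b (ENSMUSG00000073418.4, chr17:34728380-34743882), Cfb (ENSMUSG00000090231.10, chr17:34856374-34862518) and C2 (ENSMUSG00000024371.14, chr17:34862604-34898265) lie on the minus strand in the major histocompatibility complex, and 85 bases separate Cfb from C2. C3 (ENSMUSG00000024164.15, chr17:57203970-57228136, minus strand) lies elsewhere on chromosome 17. Serping1 (ENSMUSG00000023224.12, chr2:84765387-84775444, minus strand) and Cd59a (ENSMUSG00000032679.12, chr2:104095801-104115354, plus strand) are on chromosome 2, and Cd55 (ENSMUSG00000026399.12, chr1:130439027-130462744, minus strand) is on chromosome 1.

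RefSeq promoter windows (GRCm38.p6) were matched for 5 of the 9 genes. The 250 bases before the start are shown for C1s1, which kept the steadiest ratio among the 9 with C1ra, and for C3, whose level kept the least steady ratios. The window of C1ra is not shown, since 216 of its 250 bases lie within the first exon of C1ra in GENCODE M21, which places the start farther upstream than RefSeq. The windows shown are chr6:124542360-124542609 on the minus strand for C1s1 (the farther upstream of its 2 windows) and chr17:57228137-57228386 on the minus strand for C3. Capitals mark a match to TTNNGCAA, the letters searched on both strands for a C/EBP site.
C1s1: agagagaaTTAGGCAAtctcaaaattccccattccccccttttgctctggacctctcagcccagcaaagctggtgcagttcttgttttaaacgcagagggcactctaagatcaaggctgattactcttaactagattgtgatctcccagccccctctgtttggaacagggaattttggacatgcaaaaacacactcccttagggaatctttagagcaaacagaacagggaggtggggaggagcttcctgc
C3: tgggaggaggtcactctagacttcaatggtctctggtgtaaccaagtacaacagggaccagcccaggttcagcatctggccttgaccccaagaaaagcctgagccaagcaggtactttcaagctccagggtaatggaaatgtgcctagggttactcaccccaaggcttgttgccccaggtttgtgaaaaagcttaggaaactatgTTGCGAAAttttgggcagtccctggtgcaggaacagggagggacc
The match lies at -242 to -235 from the start of C1s1 (TTAGGCAA) and at -45 to -38 from that of C3 (TTGCGAAA, on the opposite strand). Of 32851 RefSeq windows of this length, 9.56% hold such a match, so it is a common stretch of letters and describes these windows only. The letters searched for a STAT site (TTCNNNGAA, in 7.02% of all windows), a TATA box (TATAAA, 12.4%) and a CCAAT box (CCAAT, 33.8%) were in none of the 6 windows of the 5 genes. The window of Cd59a held a match to the letters of an interferon-stimulated response element (GAAA, 2 free bases and GAAA again, in 2.98% of all windows), and no window of the 5 genes held those of a kappaB site (GGGA, a free base, TT, a free base and CC, in 0.98%).

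The order of the levels among the 9 genes was examined first, in normalized counts per kilobase of exon, a scale on which genes of different length can be compared. The secreted regulator and the central component led, and the alternative pathway component came last. Serping1, which encodes C1 inhibitor, had a mean level over the 14 libraries of 3144 normalized counts per kilobase, above 97.1% of all genes of the table. C3, the protein on which all pathways converge, followed at 2569, C1s1 at 1894 and C4b at 1094. Cd55, a membrane protein that speeds the decay of the C3-cleaving enzymes, stood at 819 and C1ra at 699. Cd59a, a membrane protein that blocks the final pore, stood at 496, while C2, the classical pathway counterpart of factor B, was at 60.0 and Cfb, factor B itself, at 6.48.

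Few of these neighbours in order were apart by more than their spread over libraries. Serping1 exceeded C3 in 10 of 14 libraries, by 0.24 ± 0.97 on the log2 scale of levels per kilobase (mean ± SD over libraries), and C3 exceeded C1s1 in 9 of 14, by 0.46 ± 0.90. The place of C3 relative to Serping1 and to C1s1 therefore differed from mouse to mouse, while Serping1 stood above C1s1 in each library. C1s1 exceeded C4b in 13 of 14 libraries by 0.83 ± 0.40, Cd59a exceeded C2 in all 14 by 3.09 ± 0.61, and C2 exceeded Cfb in all 14 by 3.10 ± 0.43. The other 3 steps, from C4b to Cd55 to C1ra to Cd59a, were each smaller than 1 SD, at 0.35 ± 0.47, 0.26 ± 0.46 and 0.47 ± 0.51. C3 and Cfb, whose proteins meet in the alternative pathway enzyme, were thus far apart in the order of counted reads. The low places of C2 and Cfb depend on how reads shared with another gene were assigned, as described below.

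**Figure D1:**
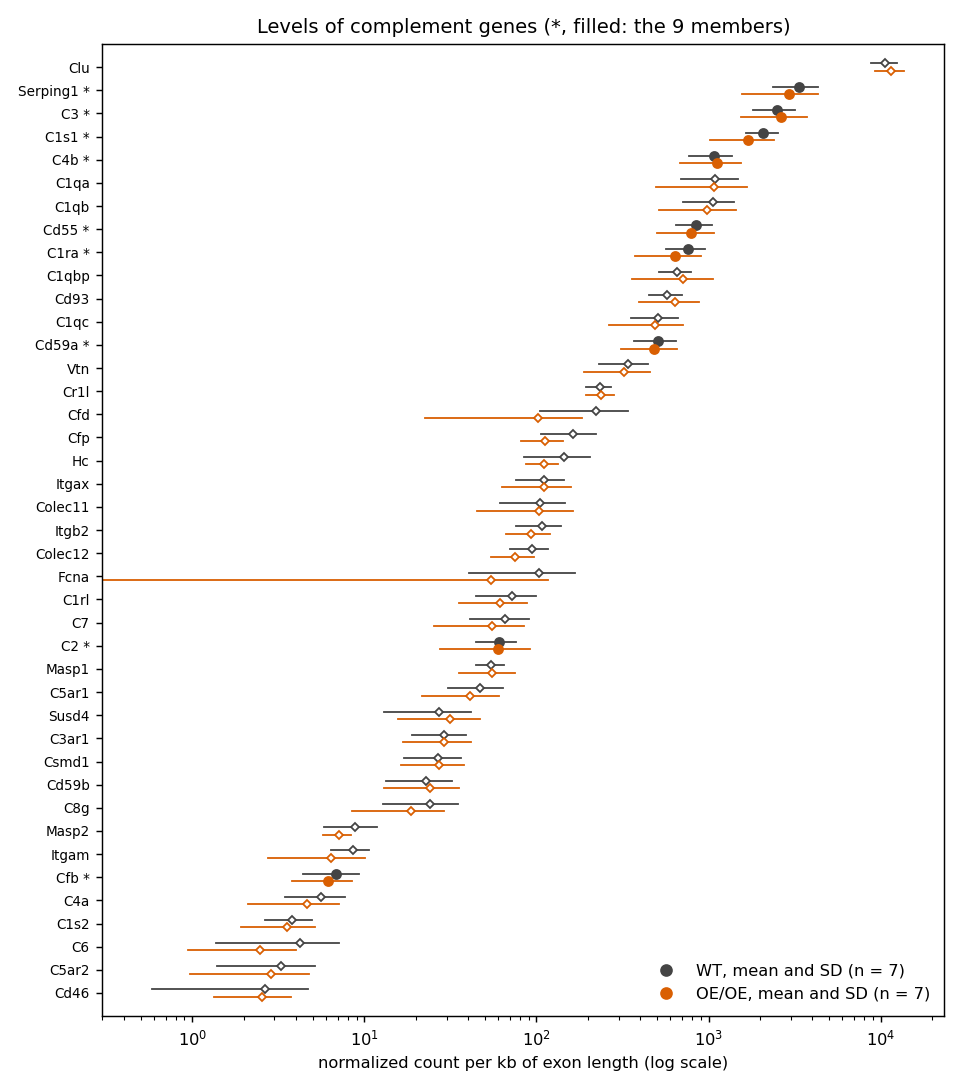
Level of complement genes in normalized counts per kilobase of exon length (horizontal axis, log scale), as mean (symbol) and SD (line) of 7 WT mice (grey) and 7 OE/OE mice (orange), with the 9 genes described here as filled circles and marked with an asterisk, and the SD line of Fcna in OE/OE running to the axis edge because its mean minus SD is below 0. Serping1 (3144 over all libraries) and C3 (2569) stand near the top below Clu, Cfb (6.48) is near the bottom, and the lines of the 2 genotypes overlap for each of the 9.

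Some of these levels rest on reads that another gene could share. In the annotation, 79.5% of the exon bases of Cfb and 42.8% of those of C2 also belong to Gm20547, a gene model on the same strand that joins both. Of all 75-base stretches of their transcripts, 42.4% of C1ra (40.1% with its copy C1rb), 22.7% of C4b (with C4a) and 24.8% of C1s1 (13.0% with C1s2) occur in another gene too. C3 and Serping1 share no such stretch with any gene, and Cd55 and Cd59a share 6.13% and 1.66%. How fragments over 2 genes were assigned, and whether strand was used, is not given in the sources used here, so the levels of Cfb, C2, C1ra, C4b and C1s1 are uncertain. If shared fragments were left uncounted, these levels per kilobase of full exon length are too low. C1s1 also overlaps the antisense gene Gm16567 over 18.4% of its exon bases.

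Whether the level of these genes differs with Usp22 overexpression was asked within littermate pairs. None of the 9 genes passed the threshold, an unadjusted p of 0.05 or less in limma with the pair as a block on log2(normalized count + 1). Of all 16124 genes, 3.81% passed it in either direction, 1.85% passed it as lower in OE/OE, and 0.0124% had a Benjamini-Hochberg adjusted p under 0.05 (limma). The log2 fold changes (OE/OE over WT) of the 9 ran from -0.42 for C1s1 to 0.04 for C3, with a median of -0.16, and 8 of 9 were below 0. Over all genes tested the median was -0.0015 and 50.4% were below 0. The count of signs depended on pair 4. Without that pair C1s1, C1ra and Cfb stayed below 0, while C4b, Serping1, C2, Cd55, Cd59a and C3 were above it. Each of the 9 had a limma adjusted p of 1.00. edgeR and DESeq2 on the recovered fragments likewise called 0 of the 9 at an unadjusted p of 0.05. The median fold hides large and opposite differences between pairs, which are described after the genes themselves.

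**Figure D2:**
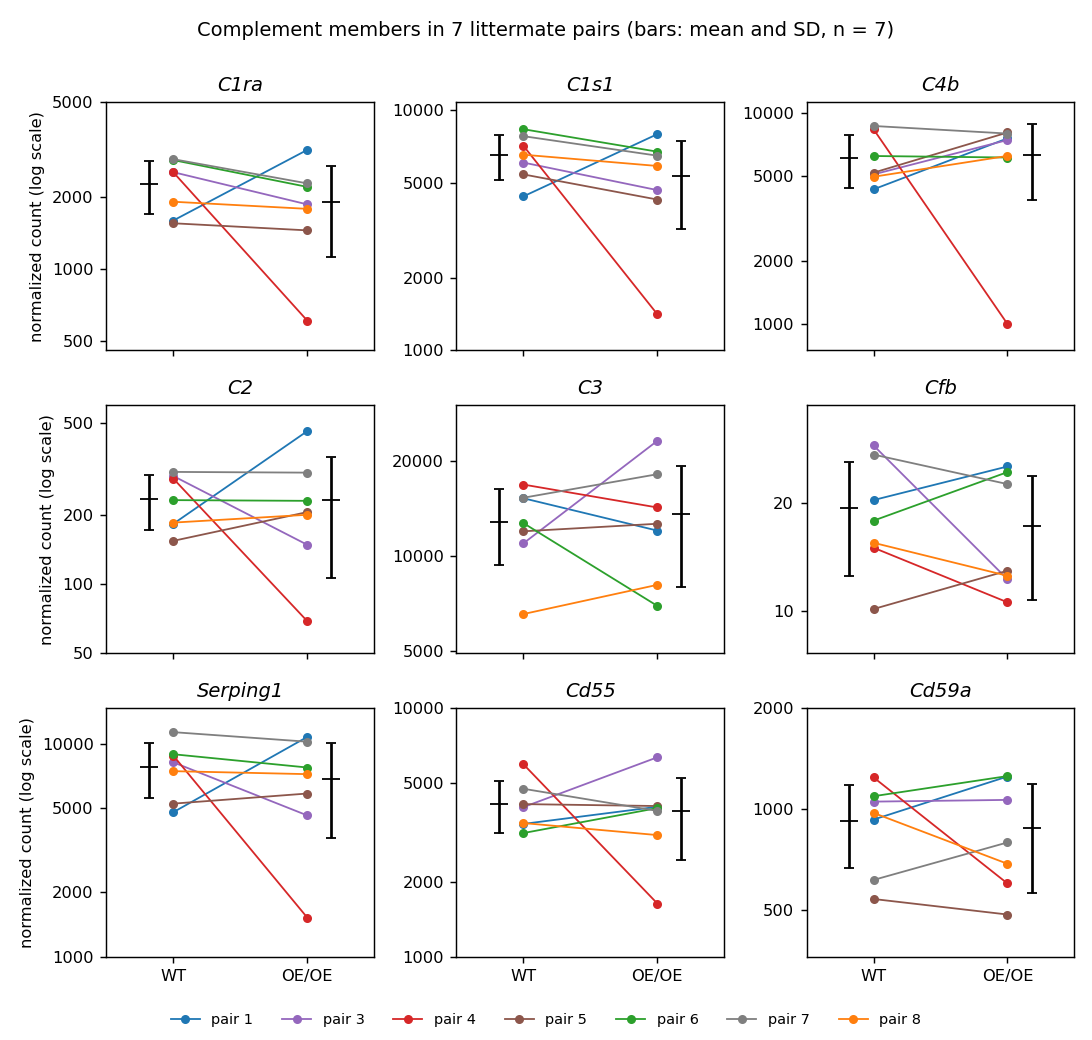
Normalized count (vertical axis, log scale) of each of the 9 genes in WT and OE/OE mice, with a coloured line joining the littermates of each of the 7 pairs and a black bar for the mean and SD of the 7 mice. The WT and OE/OE ranges overlap in all 9 panels, and the OE/OE mouse of pair 4 (red) is the lowest of all 14 for C1ra, C1s1, C4b, C2, Serping1 and Cd55 but not for C3, Cfb or Cd59a.

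C1r and C1s are the proteases of the first classical pathway complex. C1s1 had 4380 normalized counts in the lowest, 6533 in the median and 8341 in the highest WT mouse, and 1415, 5863 and 7956 in OE/OE. The OE/OE values reached further down, with pair 4 as the lowest mouse, while the highest, pair 1, lay within the WT range. Its log2 fold change was -0.42 (standard error 0.29, 95% confidence interval -1.07 to 0.23), and flipping the signs of the 7 pair ratios in all ways, an exact two-sided test, gave p = 0.344. C1s1 was lower in 6 of the 7 OE/OE mice than in their littermates. C1ra had 1551, 2537 and 2877 normalized counts in WT and 607, 1861 and 3146 in OE/OE, in the same order of lowest, median and highest. It was lower in the same 6 pairs, with a log2 fold change of -0.35 (standard error 0.28, 95% confidence interval -0.97 to 0.27, exact p = 0.422). For both genes the OE/OE mouse of pair 1 stood above its littermate, by 0.86 for C1s1 and 0.98 for C1ra on the log2 scale.

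C4 and C2 are the substrates of C1s that form the C3-cleaving enzyme of the classical and lectin pathways. C4b had 4339, 5200 and 8641 normalized counts in WT and 1004, 7417 and 8050 in OE/OE. The median was higher in OE/OE, and 1 mouse, that of pair 4, lay far below the other 13. The log2 fold change of C4b was -0.13 (standard error 0.40, 95% confidence interval -1.04 to 0.78, exact p = 0.953), while its normalized counts averaged 6120 ± 1717 in WT against 6337 ± 2473 in OE/OE (SD over 7 mice each). On the log2 scale the lone low mouse weighs more than in the mean count, so the 2 summaries of C4b differ in sign. C2 had 154, 231 and 306 normalized counts in WT and 69.1, 205 and 460 in OE/OE. C2 had a log2 fold change of -0.17 (standard error 0.33, 95% confidence interval -0.92 to 0.58, exact p = 0.703), with 3 pairs higher and 4 lower.

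C3 is the central component, and its fragments coat targets and act as signals to leukocytes. C3 had 6550, 12717 and 16845 normalized counts in WT and 6951, 12656 and 23178 in OE/OE. The medians were nearly equal and the highest 2 OE/OE values, in pairs 3 and 7, exceeded all WT values. For C3 the log2 fold change was 0.04 (standard error 0.19, 95% confidence interval -0.40 to 0.47, exact p = 0.859). In fold terms this interval spans 0.758 to 1.39. The pairs ran from -0.87 in pair 6 to 1.08 in pair 3, with 4 higher and 3 lower. In pair 4, where most of the other genes were lowest, C3 stood at 14251 normalized counts in OE/OE against 16845 in WT.

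Factor B supplies the protease of the alternative pathway enzyme. Cfb had 10.1, 17.9 and 29.1 normalized counts in WT and 10.6, 12.9 and 25.4 in OE/OE, from 10 to 35 fragments per library. At the median of these fragments, counting error alone has an SD of 25.0%, so differences of that size in Cfb were not detectable in a single library. Its log2 fold change was -0.16 (standard error 0.24, 95% confidence interval -0.70 to 0.37, exact p = 0.547). The range of Cfb in OE/OE lay within that in WT.

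The regulators showed the same overlap of genotypes. Serping1 encodes the inhibitor that removes C1r and C1s from the C1 complex. It had 4759, 8162 and 11308 normalized counts in WT and 1523, 7181 and 10738 in OE/OE. The log2 fold change of Serping1 was -0.35 (standard error 0.35, 95% confidence interval -1.12 to 0.43, exact p = 0.531), and its pair values spanned -2.53 to 1.17. Cd55, the decay-accelerating factor, had 3137, 3989 and 5934 normalized counts in WT and 1633, 3954 and 6328 in OE/OE. The medians of Cd55 were close, and its log2 fold change was -0.16 (standard error 0.25, 95% confidence interval -0.72 to 0.41, exact p = 0.797). Cd59a, which blocks the last step of pore formation, had 540, 974 and 1242 normalized counts in WT and 485, 795 and 1253 in OE/OE. The log2 fold change of Cd59a was -0.10 (standard error 0.17, 95% confidence interval -0.48 to 0.28, exact p = 0.656), the narrowest interval of the 9, and corresponds to a fold of 0.717 to 1.22.

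The spread of the 9 genes over the libraries was also divided between pair and genotype, as a description with no test, the pair term having more degrees of freedom. Of the sum of squares of the log2 values, the pair took 70.7% for Cd59a, 67.6% for C3 and 66.2% for Cfb, and 24.8% to 40.3% for the other 6. Genotype took at most 11.4% (C1s1), and 0.139% for C3. The remainder is the difference between littermates that did not repeat from pair to pair. It was largest for Cd55, C4b and C2, whose lowest OE/OE value came from pair 4.

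The pair medians farthest from 0 were those of pairs 4 and 1, in opposite directions. In pair 4 all 9 genes were lower in the OE/OE mouse, with a median log2 ratio of -2.04, and in pair 1 all but C3 were higher, with a median of 0.80. In pair 4 the ratios ran from -3.05 for C4b, -2.53 for Serping1 and -2.33 for C1s1 to -0.47 for Cfb and -0.24 for C3. In pair 1 they ran from 1.33 for C2 and 1.17 for Serping1 to -0.34 for C3. The other 5 pairs had medians from -0.38 (pair 3) to 0.08 (pair 5). Pair 3 was mixed, with C3 at 1.08 and Cd55 at 0.67 on the higher side and Cfb at -1.19, C2 at -0.99 and Serping1 at -0.83 on the lower side.

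**Figure D3:**
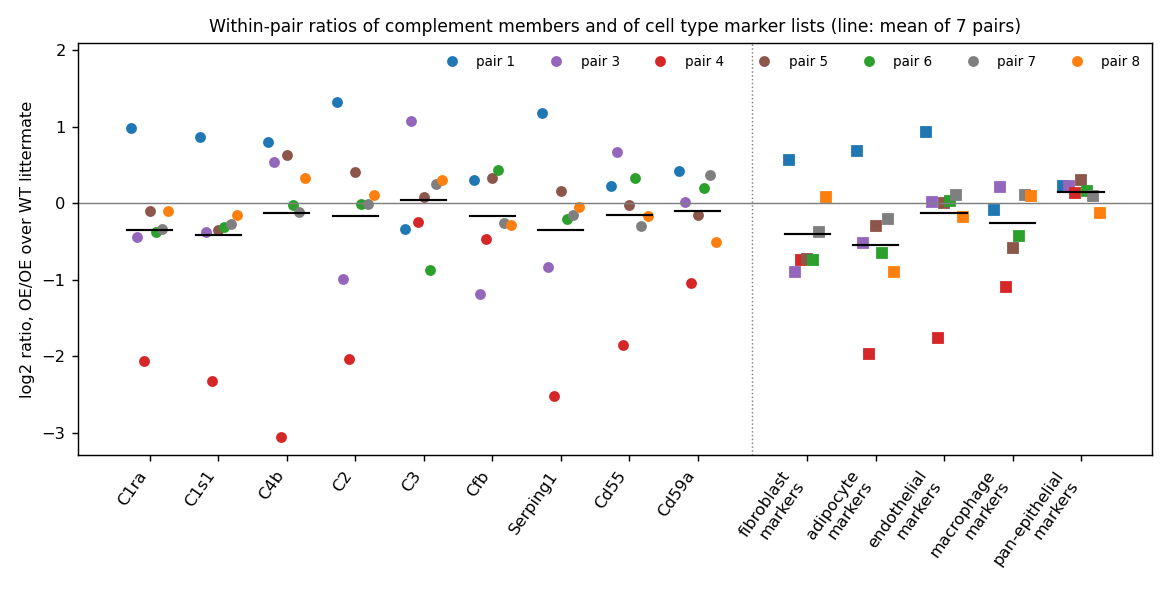
Log2 ratio of OE/OE over its WT littermate (vertical axis) for each of the 9 genes (circles) and, right of the dotted line, for the mean log2 level of 5 lists of cell type markers (squares), coloured by pair, with a black line at the mean of the 7 pairs. Pair 4 (red) lies lowest for 7 of the 9 genes and for the adipocyte, endothelial and macrophage lists, pair 1 (blue) lies highest for C1ra, C1s1, C4b, C2, Serping1 and Cd59a and for the fibroblast, adipocyte and endothelial lists, and the pan-epithelial list stays between -0.12 and 0.30.

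Several marker lists of non-epithelial cells differed most between littermates in pair 4, pair 1 or both, and their part in these ratios was not tested beyond the fits with a marker score as covariate. The mean log2 level of the endothelial list differed within pair 4 by -1.76 and within pair 1 by 0.93 (OE/OE minus WT), and by -0.18 to 0.11 in the other 5 pairs. For the adipocyte list the values were -1.97 in pair 4 and 0.68 in pair 1, and it was lower in OE/OE in 6 of 7 pairs, with a mean difference of -0.55. The fibroblast list was lower in 5 of 7 pairs, with a mean difference of -0.41, at 0.57 in pair 1 and, in pairs 3, 4, 5 and 6, at -0.90, -0.75, -0.73 and -0.74, so that pair 4 did not stand apart in it. The macrophage list was at -1.09 in pair 4 and -0.09 in pair 1. The pericyte list (8 markers, summed level 16901 to 36037 normalized counts in WT and 9473 to 37282 in OE/OE) was at -1.55 in pair 4 and 0.84 in pair 1. The lymphocyte list went the other way, at 0.19 in pair 4 and -2.22 in pair 1 (8 of 10 markers in the table, summed level 541 to 2704 in WT and 456 to 1069 in OE/OE). The pan-epithelial list was higher in OE/OE in 6 of 7 pairs, with a mean difference of 0.14. Within the epithelium, the luminal hormone-sensing list (8 markers) was lowest in pair 4, at -0.53, and highest in pair 1, at 0.30. The basal list (10 markers) was at 0.04 in pair 4 and -0.59 in pair 1. For the luminal progenitor list (8 markers) the values were -0.39 and -0.45.

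C1s1, C1ra, Serping1 and C2 varied most nearly in step over the 14 libraries, as a description of these samples. The SD of the log2 ratio of their levels was 0.18 between C1s1 and C1ra, 0.21 between C1s1 and Serping1, 0.25 between C1ra and Serping1 and 0.26 between C1ra and C2, the 4 smallest of the 36 pairings of the 9 genes. C1s1 itself had an SD of 0.64 on the log2 scale and C1ra of 0.60, so their ratio spread far less than either level. C4b stood somewhat apart, with an SD of 0.40 to Serping1 and to C1s1. C3 stood farthest apart: its ratio to Serping1 had the largest SD of the 36, 0.97, and the median SD of its ratios to the other 8 was 0.82. Its ratio to Cd55 was steadier, with an SD of 0.57. The 14 libraries differ together in litter, depth and cell mixture, and which of these the shared movement follows was not tested.

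The genes most like each of the 9 over the 14 libraries were sought among 13230 genes with a mean of at least 50 normalized counts, by the mean absolute difference of their centred log2 values. C1ra was the nearest gene to C1s1 at 0.14, with Islr next at 0.14. C1ra itself was nearest to Cygb (0.10) and Sod3 (0.12), with C1s1 at position 6, and C2 was nearest to Sod3 (0.14) and Selp (0.17), with C1ra at position 4. Serping1 was nearest to Gabra3 (0.12) and Thbs3 (0.13). C4b was nearest to Adcy4 and Lrrc32, both at 0.20, and Cfb to Gfra3 (0.24) and Fbln1 (0.26). Among the membrane regulators, Cd55 was nearest to Phf1 (0.16) and Zdhhc14 (0.18), and Cd59a to Abhd14b (0.11) and Pla2g16 (0.13). C3 had the most distant neighbours, Ccdc88b at 0.27 and Cnbd2 at 0.29, and the nearest of the other 8 genes to C3 was Cd55, at position 1826 (Cfb, below the level limit, was not ranked).

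Leaving out pair 1 or pair 4 changed which of the 9 genes passed the threshold, and leaving out any other single pair let none pass. Without pair 1, C1s1 had a log2 fold change of -0.63 (limma unadjusted p = 0.0450) and C1ra of -0.57 (limma unadjusted p = 0.0444), in a fit where 7.42% of all genes passed. Without pair 4, C4b alone of the 9 passed, as higher in OE/OE, at 0.36 (limma unadjusted p = 0.0172, 8.47% of all genes). With both pairs left out, a choice made after the values were seen, C1s1 was at -0.29 (limma unadjusted p = 0.00216) and C1ra at -0.27 (limma unadjusted p = 0.00709), beside 11.2% of all genes. The 2 proteases were lower in all 5 remaining pairs, with log2 ratios of -0.38 to -0.16 for C1s1 and -0.45 to -0.10 for C1ra. Pair 1 was the only pair in which they were higher, so this shared direction follows from leaving it out. No adjusted p of any of the 9 genes was under 0.05 in any of the alternatives, and the smallest was 0.349 (limma).

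Adding a marker score as covariate moved the genes in different directions. With the adipocyte score, C4b was at 0.64 (limma unadjusted p = 0.0471) and C2 at 0.48 (limma unadjusted p = 0.0462), both higher in OE/OE, beside 14.1% of all genes. With the endothelial score, added after the values were seen, C1s1 was at -0.28 (limma unadjusted p = 0.00312) and C1ra at -0.22 (limma unadjusted p = 0.0296), both lower, beside 7.29% of all genes. With the fibroblast, macrophage or pan-epithelial score none of the 9 passed, and with the fibroblast score C1s1 stood at 0.03 and C1ra at 0.11. C1s1 and C1ra thus changed sign between the endothelial fit and the fibroblast and adipocyte fits.

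**Figure D4:**
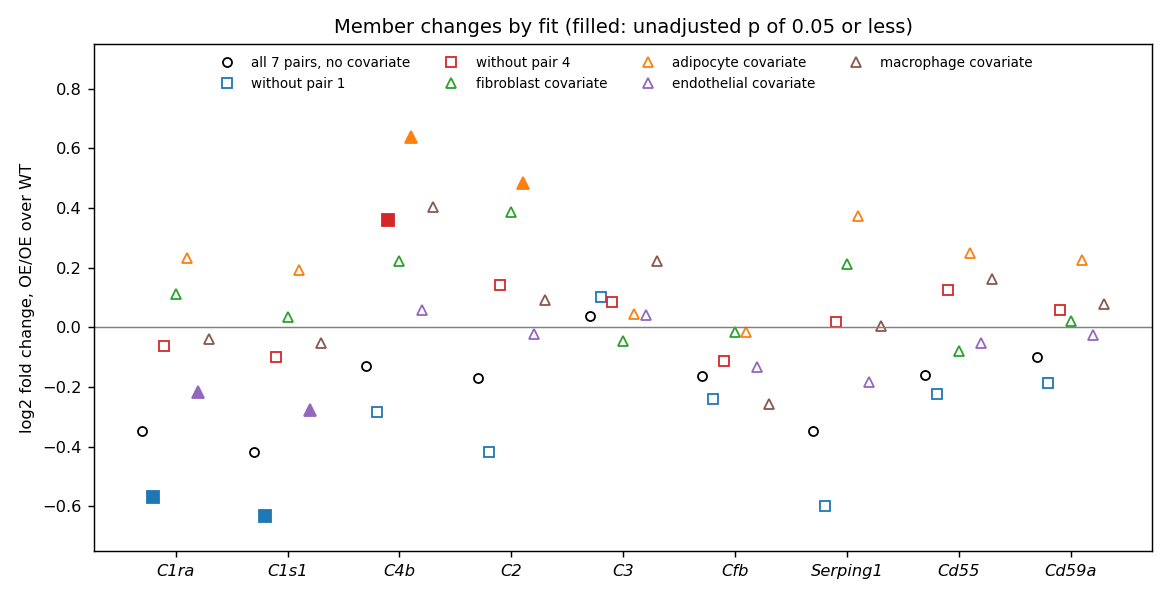
Log2 fold change of each of the 9 genes (vertical axis, OE/OE over WT, limma) with all 7 pairs, without pair 1 or pair 4, and with a marker score as covariate (symbols and colours as in the key), filled where the unadjusted p was 0.05 or less. No gene is filled with all 7 pairs, C1ra and C1s1 are filled without pair 1 and with the endothelial score, C4b without pair 4 and with the adipocyte score, and C2 with the adipocyte score.

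The other genes of the complement system were compared in the same fit, from a list of 49 of which 33 were in the table. Past the same threshold none was higher in OE/OE and 2 were lower, Cfd and Fcna, where 1.85% of all genes were called lower. Their median log2 fold change was -0.17, and 26 of 33 were below 0. All 11 genes of recognition and of the classical or lectin pathway, all 3 of the alternative pathway and all 4 of the terminal pathway were below 0, against 6 of 7 receptors and 2 of 8 regulators.

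Cfd encodes factor D (adipsin), the protease made by adipocytes that cleaves factor B bound to C3. Cfd had 48.2 normalized counts in the lowest, 204 in the median and 369 in the highest WT mouse, and 20.5, 64.4 and 220 in OE/OE. It was lower in OE/OE in all pairs except pair 1, where it was higher by 0.43 on the log2 scale. Its log2 fold change was -1.32 (standard error 0.33, 95% confidence interval -2.05 to -0.58, limma unadjusted p = 0.00268, adjusted p = 1.00), and the exact sign-flip test gave p = 0.0312. With DESeq2 on the recovered fragments its adjusted p was 0.0369, and over the 23 alternatives the adjusted p ran from 0.0369 to 1.00. Its unadjusted p stayed at 0.05 or less in all 23, with log2 fold changes from -1.61 to -0.66. The adipocyte list was lower in the same 6 pairs, and with its score as covariate Cfd was at -0.66.

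Fcna, the lectin ficolin A of macrophages, had 25.6, 140 and 285 normalized counts in WT and 12.5, 49.0 and 256 in OE/OE. Its log2 fold change was -1.24 (standard error 0.50, limma unadjusted p = 0.0328, adjusted p = 1.00), it was lower in 5 of 7 pairs, and the exact sign-flip test gave p = 0.109. It passed the unadjusted threshold in 12 of the 23 alternatives, with log2 fold changes from -1.62 to -0.29 over all of them. It no longer passed without pair 3, 4, 5, 6 or 8, with the fibroblast, adipocyte, macrophage or pan-epithelial score as covariate, without the block, or in the paired test on untransformed counts.

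Of the most highly expressed genes of each role, those described here did not pass the test, apart from Cfd. C1qa and C1qb, chains of the recognition protein C1q that macrophages make, had mean levels of 1084 and 1020 normalized counts per kilobase over all libraries, near that of C4b, and log2 fold changes of -0.09 and -0.17 (standard errors 0.13 and 0.16). Of the terminal pathway, Hc, which encodes C5, was at 127 per kilobase and -0.30 (standard error 0.18), while C7 was at -0.49 (standard error 0.46) with 4 of 7 pairs higher in OE/OE, and at -0.02 without pair 4. Cd93, a receptor of endothelial and myeloid cells, was at 607 per kilobase and 0.01 (standard error 0.22), and Itgax, a chain of complement receptor 4, at -0.03 (standard error 0.19). Clu, clusterin, which binds terminal complexes and keeps them soluble, was the highest complement gene at 11035 per kilobase, with a log2 fold change of 0.11 (standard error 0.11) and a higher level in OE/OE in 6 of 7 pairs. C1qbp, whose mitochondrial product also binds C1q, was at 681 per kilobase and 0.03 (standard error 0.12).

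**Figure D5:**
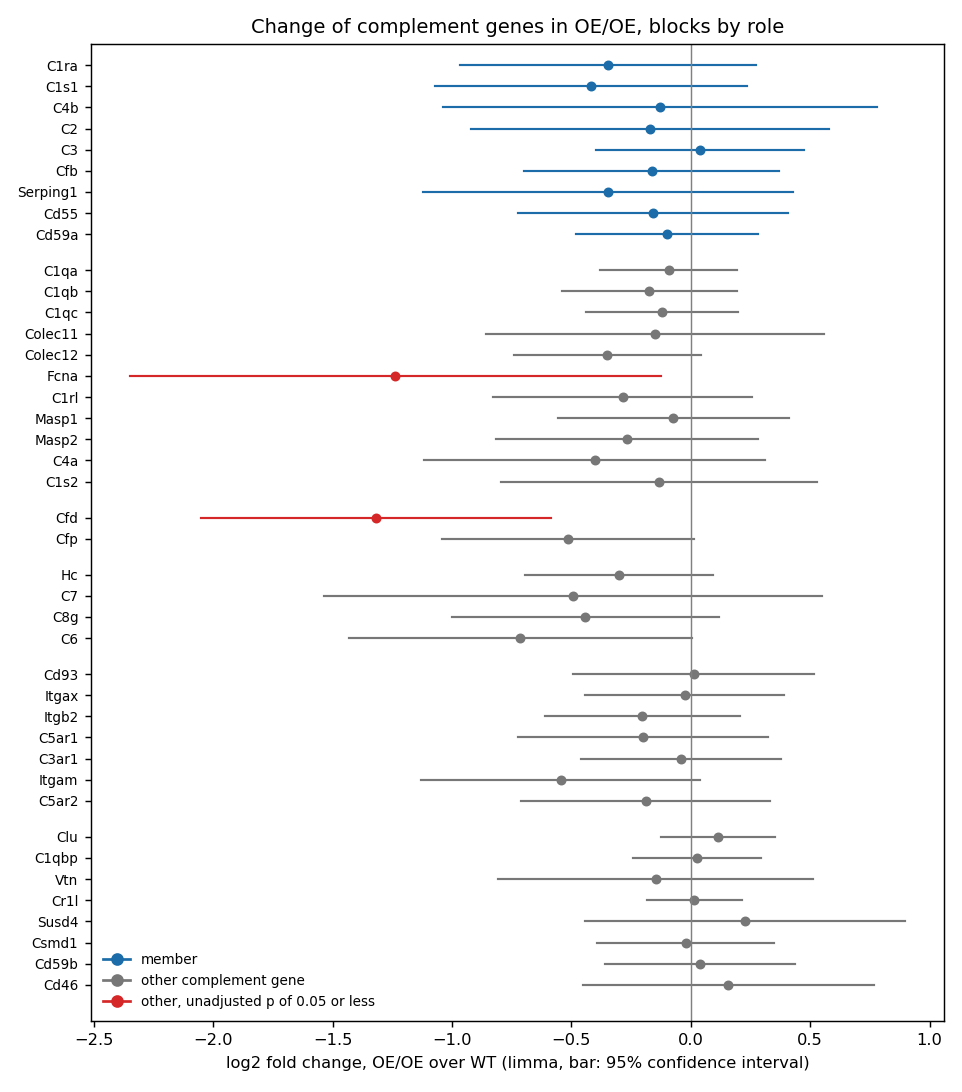
Log2 fold change (horizontal axis, OE/OE over WT, limma with the pair as a block) of the 9 genes described here (blue) and of other complement genes (grey, or red at an unadjusted p of 0.05 or less), with lines for the 95% confidence interval, in blocks from top to bottom for the 9 genes, recognition and classical or lectin pathway, alternative pathway, terminal pathway, receptors and regulators. The intervals of all 9 genes include 0, and those of Fcna (-1.24) and Cfd (-1.32) lie below it.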

How the data were processed

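RNA of mammary epithelial cells from 7 WT and 7 Usp22 OE/OE mice was compared in 7 littermate pairs, known from the labels and methods. The authors aligned read pairs to mm10 by TopHat2 2.0.10, counted them per GENCODE M21 gene with HTSeq 0.6.0 and dropped genes that did not reach 10 fragments in 7 samples. The deposited values are a signal, counts that the authors divided by DESeq 1.18.0 size factors. Whole fragments were recovered from them (100% of values), 20125106 to 41835978 per library, and depth limits precision chiefly for Cfb.

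The main test was limma 3.58.1 (R 4.3.3, trended) of log2(normalized count + 1) with the pair as a block, at an unadjusted p of 0.05, with Benjamini-Hochberg adjustment beside it. The pseudocount makes changes of weakly expressed genes look smaller. Single genes were also tested by exact two-sided sign flips of pairs (128 patterns, smallest p 0.0156). The numbers pair the samples, since same-numbered mice are littermates, whose deviations from group means correlated at r of 0.171 to 0.748 across genes. Their median r was 0.522, against -0.151 for mice of different numbers (-0.538 to 0.634), so the ranges overlap. Alternatives were edgeR 4.0.16 and DESeq2 1.42.0 on recovered fragments, other scalings, filters, pseudocounts, marker scores and omitted pairs. Tests were checked on simulated data. Genes named were the 9 chosen, Usp22, other complement genes past the threshold or among the 2 highest per kilobase in each role, and the 2 genes most like each of the 9, except that some results are not reported here. The chosen genes and lists were set with earlier results of these data known.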

Additional observations from a re-analysis of the deposited data

Results flagged for a closer look

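Within each genotype, the lowest and highest mouse was set against the others for the 9 genes and for 5 marker lists. In 2 of these 28 groups of 7 mice the gap from the end value to its nearest neighbour exceeded, as a share of the whole range, Dixon's 95% critical value, where chance alone would give about 1.4. Both were the OE/OE mouse of pair 4. C4b was at 9.97 there on the log2(normalized count + 1) scale, the next OE/OE mouse being at 12.6, a gap of 0.869 of the range. C1s1 was at 10.5, the next being at 12.1, a gap of 0.637. In the same library C3 was at 14251 normalized counts, between the lowest (6951) and highest (23178) OE/OE mice, and the pan-epithelial list was above its WT littermate by 0.13 (log2). The luminal hormone-sensing list was at -0.53 (log2) against that littermate. The endothelial list there summed to 18744 normalized counts, against 61604 to 113755 in the other OE/OE mice. The part of cell mixture in the low C4b and C1s1 of this library was not tested.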

How the results depend on the processing

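With 7 mice per genotype and opposite ratios in pairs 1 and 4, the intervals of the 9 genes spanned folds from 0.460 to 1.72, and changes within them were not resolved. Of 206 alternative values of the 9 genes over 23 settings, 168 kept direction and side of the threshold, 32 changed sign and 6 kept the sign and passed the threshold. Of these, C1s1 and C1ra passed without pair 1, with the endothelial score (-0.28 and -0.22) and without pairs 1 and 4 (-0.29 and -0.27). None of the 9 genes had passed in the reported test, so the changes of sign start from values that were not called. Some values that changed sign did pass the threshold. They were C4b without pair 4 (0.36) and, with the adipocyte score, C4b (0.64) and C2 (0.48). Cfb had no value at a mean of at least 50 normalized counts. The causes were not tested.

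Changes of sign, given as log2 fold changes, were as follows. Quantile normalization put C3 at -0.0148, and the paired test on untransformed counts put C4b at 0.0501. The fibroblast score put C3 at -0.0462, C4b at 0.22, C1s1 at 0.0331, C1ra at 0.11, Serping1 at 0.21, C2 at 0.39 and Cd59a at 0.0201. The adipocyte score put C4b at 0.64, C1s1 at 0.19, C1ra at 0.23, Serping1 at 0.37, C2 at 0.48, Cd55 at 0.25 and Cd59a at 0.22. The macrophage score put C4b at 0.40, Serping1 at 0.0036, C2 at 0.0911, Cd55 at 0.16 and Cd59a at 0.078. The endothelial score put C4b at 0.0579, and leaving out pairs 1 and 4 put C4b at 0.27 and Cd55 at 0.10. With each pair left out in turn, the values ran from -0.14 to 0.19 for C3, -0.28 to 0.36 for C4b, -0.26 to 0.0063 for Cfb, -0.63 to -0.10 for C1s1, -0.57 to -0.0622 for C1ra, -0.60 to 0.0168 for Serping1, -0.42 to 0.14 for C2, -0.30 to 0.12 for Cd55 and -0.19 to 0.0593 for Cd59a. Those above 0 for C4b, Serping1, C2, Cd55 and Cd59a came without pair 4, and those without pair 3 were -0.14 for C3 and 0.0063 for Cfb. Without pair 8 C3 was at -0.0078.

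The number of the 9 genes called was 0 with all 7 pairs, 0 to 2 with each pair left out in turn, and 2 with the adipocyte score, with the endothelial score, and without pairs 1 and 4. Without the replicate block, which removes the littermate pairing, 0 of the 9 were called, 82 genes were higher and 100 lower over the whole table (315 and 299 with it), and 1 of the other complement genes was called in place of 2. For all genes higher and lower, the fibroblast score gave 189 and 178, the adipocyte score 1300 and 968, the pan-epithelial score 194 and 140, the endothelial score 596 and 579, leaving out pairs 1 and 4 gave 974 and 831, and leaving out each pair in turn 179 to 724 and 202 to 642. The other complement genes called were 1 with the paired test on untransformed counts and with the fibroblast, macrophage or pan-epithelial score, 5 with the adipocyte score, 4 with the endothelial score or without pairs 1 and 4, and 1 to 5 with each pair left out in turn.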

Other observations

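Genes of factors known to act on complement promoters and genes of cytokine receptors (together 21 of 23 listed were in the table) were described from the same fit. Their log2 fold changes ran from -0.22 for Il1r1 to 0.30 for Cebpa, with a median of -0.04 and 13 of 21 below 0 (50.4% of all genes were). At an unadjusted p of 0.05 or less 1 of the 21 was called, near the 3.81% of all genes. It was Cebpa, a C/EBP factor, whose mean was 1660 normalized counts in WT against 2077 in OE/OE, and which was higher in 6 of 7 pairs (log2 fold change 0.30, standard error 0.12, limma unadjusted p = 0.0329, adjusted p = 1.00). Stat3, a mediator of interleukin 6 signals, was at 0.03 (standard error 0.10). Il6st, the shared receptor chain of interleukin 6 cytokines, was at -0.01 (standard error 0.17).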
